A study of Mus musculus with 8 samples.

Results

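Wnt proteins are secreted lipid-modified signals that bind Frizzled receptors together with a co-receptor, and in the gut they pass between the epithelium and the mesenchyme beneath it. The 48 genes described here are the mouse Wnt ligands (19), the Frizzled receptors (10), the co-receptors Lrp5, Lrp6, Ror1 and Ror2 (4), secreted antagonists of the Sfrp, Dkk, Wif1 and Frzb kind (9), the R-spondins (4), and the ligand secretion genes Porcn and Wls (2). They were picked by symbol from a table of 23393 genes, and each was found. Porcn attaches the lipid to a Wnt and Wls carries it to the cell surface, Sfrp proteins bind Wnts outside the cell, Dkk proteins such as Dkk1 block Lrp5 and Lrp6, and R-spondins raise the amount of Wnt receptor on the cell.

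The libraries are poly(A) RNA-seq of gut epithelium from untreated mouse embryos at E16.5, 8 libraries with 2 from each of 4 tissues: forestomach (lined by squamous epithelium in rodents), hindstomach (the glandular part of the stomach), proximal small intestine, here called intestine, and colon. Per the labels the epithelium came from ShhCre;R26YFP/+ embryos, in which the Shh-driven Cre turns on a yellow fluorescent reporter and which all 4 tissues share. The forestomach epithelium was peeled by hand after 15 minutes in Dispase, the hindstomach was shaken in 10 mM EDTA, and the intestine and the colon in 5 mM EDTA. The forestomach therefore cannot be told apart from its isolation method, nor the hindstomach from its EDTA concentration. The labels give numbered replicates without saying whether they were separate embryos or pools, so the p-values reflect spread between libraries that may be technical. Values are FPKM, fragments scaled by transcript length and library size, and so can be compared between genes. The depth in reads is unknown, and a 0 means only that a gene is listed at 0.

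The labelled tissues were checked against marker lists. All 14 epithelial markers were at or above 1 FPKM in all 8 libraries. Squamous markers, 10 genes, summed to 1640 FPKM in forestomach replicate 1 and 42157 in replicate 2, to 256 and 30.7 in hindstomach, and to 10.8 or less in the bowel libraries. Gastric glandular markers, 12 genes, reached a sum of 168712 FPKM in forestomach replicate 1, far above its partner (246) and the hindstomach libraries (2521 and 6940). The library labelled forestomach replicate 1 therefore stands apart from its partner and goes in part against its label, and each result below that uses the forestomach is given with and without it. The 10 intestinal markers summed to 2569 and 2635 FPKM in the hindstomach, and 8 pancreas markers summed to 3483 and 944 there. Intestinal markers were at 12638 and 17849 FPKM in the intestine and at 9706 and 3425 in the colon.

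All 8 libraries also held mesenchyme marker RNA, in differing amounts. The 25 mesenchyme and smooth muscle markers summed to 5276 FPKM in forestomach replicate 1 and 130 in replicate 2, to 322 and 520 in hindstomach, 559 and 113 in intestine, and 1070 and 2433 in colon. Between 11 and 25 of the 25 markers reached 1 FPKM in a library, and the only one listed at 0 anywhere was Twist1, in intestine replicate 2. In such bulk samples fewer cells of a type and less RNA per cell cannot be told apart. Many Wnt genes are known from mesenchyme, so these amounts are repeated beside several results that they move with.

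Of the 48 genes 30 reached 1 FPKM in at least 2 libraries and were tested, and 15 never reached 1 FPKM in any library. Wnt1 was listed at 0 in all 8 libraries, and Wnt7a, Wnt8a and Wnt8b did not exceed 0.0191 FPKM. The filter passed 8 of 19 ligands, 9 of 10 Frizzled receptors, 4 of 4 co-receptors, 5 of 9 antagonists, 2 of 4 R-spondins and both secretion genes. Of all 23393 genes 12894 passed.

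Wnt4, a ligand of epithelia and of kidney and gonad development, was the most abundant Wnt in 7 of the 8 libraries. Replicates 1 and 2, in that order here and below, held 15.6 and 268 FPKM in forestomach, 10.6 and 13.4 in hindstomach, 1.14 and 0.561 in intestine and 1.51 and 3.60 in colon. All 4 stomach libraries were above all 4 bowel libraries, a separation that 4.11% of all genes tested showed. Of the summed FPKM of the 19 ligands Wnt4 held 48.3% in forestomach replicate 1 and 82.6% in replicate 2, 65.9% and 72.0% in the hindstomach and 24.2% to 30.6% in the intestine and colon, where the sum itself was 1.89 to 14.9 FPKM. In the intestine against the forestomach Wnt4 fell by 5.20 ± 1.20 on the log2 scale (log2(FPKM + 1), estimate ± SE, n = 2 libraries a tissue, limma adjusted p = 0.0303). When the library labelled forestomach replicate 1 was left out the change was -7.20 ± 0.40 (adjusted p = 0.000264), and Wnt4 was then also called lower in the hindstomach than in the forestomach (-4.38 ± 0.40), in the colon than in the forestomach (-6.31 ± 0.40), and in both bowel tissues than in the hindstomach (intestine -2.82 ± 0.33, adjusted p = 0.00495, and colon -1.93 ± 0.33, adjusted p = 0.0230). With replicate 2 left out in place of replicate 1 the forestomach comparisons were far smaller, at -0.37 in the hindstomach (limma adjusted p = 0.488, not called), -3.19 in the intestine and -2.29 in the colon (both called). With all libraries the call ended when either hindstomach, intestine or colon library was left out (highest adjusted p = 0.163).

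Other ligands shared the forestomach end of this pattern, and 3 of them were below the filter. Wnt7b, a ligand of squamous and airway epithelium, reached 1.55 and 34.2 FPKM in forestomach libraries, with 0.0151 to 0.435 in the rest. Wnt10a, a ligand of skin and tooth epithelium, reached 1.71 and 9.50 FPKM in forestomach libraries, with 0.117 at most elsewhere. Both forestomach libraries lay above the 6 others for Wnt4, Wnt7b and Wnt10a among the 30 genes tested, where 5.17% of all genes did so, and also for Wnt3a, Wnt6, Wnt16 and the antagonist Wif1 (0.294 and 0.332 FPKM), which were not tested. In forestomach replicates 1 and 2 Wnt3a was at 0.243 and 2.52 FPKM, Wnt6 at 0.410 and 2.22, and Wnt16 at 0.600 and 4.17. All 6 ligands were higher in forestomach replicate 2, the library with more squamous and less mesenchymal marker RNA. Wnt10a was called lower in the intestine (-2.41 ± 0.59, limma adjusted p = 0.0360) and the colon (-2.38 ± 0.59, adjusted p = 0.0485) than in the forestomach. Wnt7b and Wnt10a passed the filter only through the forestomach, so a difference was built in, and without forestomach replicate 1 neither was tested. The Wnt10a calls ended without any 1 of the hindstomach, intestine or colon libraries (adjusted p 0.0725 to 0.188). Wnt7b was not called in any comparison (limma adjusted p = 0.0994 for intestine minus forestomach).

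**Figure D1:**
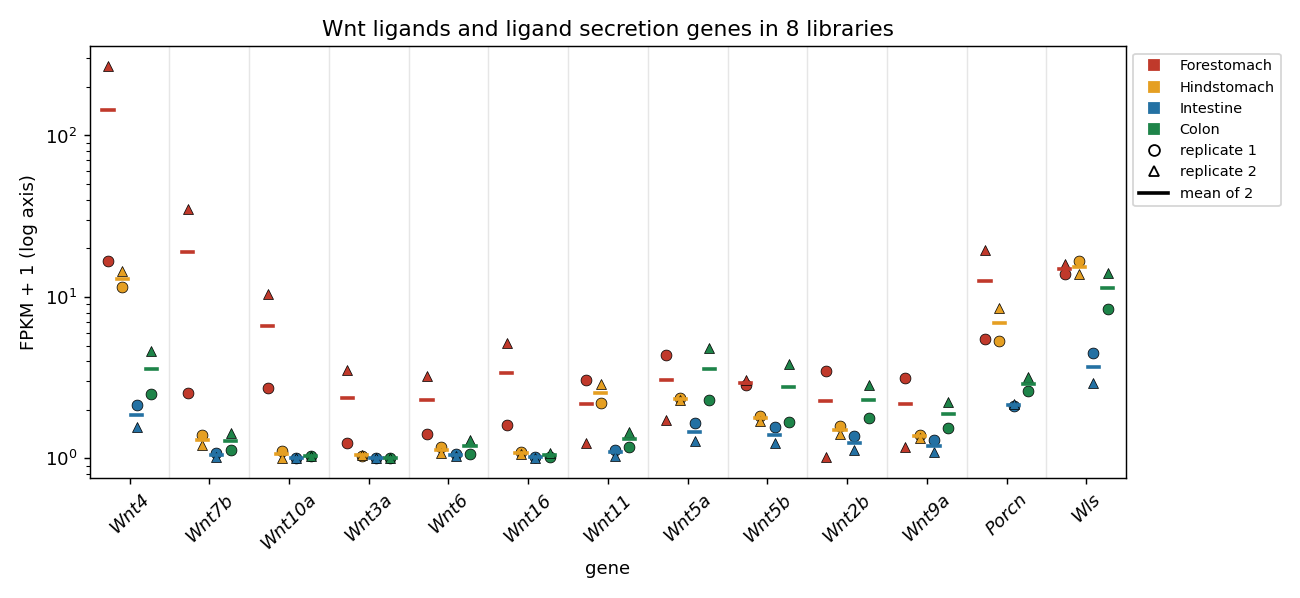
FPKM + 1 on a log axis for 11 Wnt ligands and the secretion genes Porcn and Wls, with circles for replicate 1, triangles for replicate 2, colors for the 4 tissues and bars for the mean of 2 libraries. Wnt4 runs from 268 FPKM in forestomach replicate 2 to 0.561 in intestine replicate 2, and Wls is lowest in the 2 intestine libraries, at 3.47 and 1.92 FPKM.

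Wnt11, which signals largely outside the beta-catenin pathway, was among the 3 most abundant ligands of both hindstomach libraries. It stood at 1.19 and 1.90 FPKM there, 2.07 and 0.251 in the forestomach, 0.134 and 0.0404 in the intestine, and 0.169 and 0.464 in the colon. Both hindstomach libraries exceeded all 4 bowel libraries. With 8 libraries Wnt11 passed the filter only through forestomach replicate 1 and the hindstomach libraries, so that separation was in part built in. It was not called. When forestomach replicate 1 was left out, Wnt11 passed the filter only through the 2 hindstomach libraries, so a difference was built in. It was then called lower in the intestine than in the hindstomach (-1.22 ± 0.23, limma adjusted p = 0.0166). The same fit called it higher in the hindstomach than in the forestomach (1.01 ± 0.28, adjusted p = 0.0431), and with forestomach replicate 2 left out instead that difference was -0.28.

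Wnt5a, Wnt2b, Wnt9a and Wnt5b were at 3.81 FPKM or less in all 8 libraries. Wnt5a, a mesenchymal ligand of gut elongation, stood at 3.35 and 0.729 FPKM in forestomach, 1.36 and 1.29 in hindstomach, 0.647 and 0.284 in intestine and 1.29 and 3.81 in colon libraries. Wnt2b ranged from 0.0256 FPKM in forestomach replicate 2 to 2.50 in forestomach replicate 1, and Wnt9a from 0.0953 in intestine replicate 2 to 2.14 in forestomach replicate 1. Wnt5b was at 1.84 and 2.04 FPKM in forestomach libraries and reached 2.83 in colon replicate 2. None of these 4 was called in any comparison. Wnt2b, Wnt5a and Wnt9a were each higher in the library with more mesenchyme marker RNA in the forestomach, intestine and colon pairs. In the hindstomach pair they went the other way. The part of mesenchymal RNA in their levels was not tested. Wnt2b and Wnt9a reached 1 FPKM only in forestomach replicate 1 and colon replicate 2, so their direction in the forestomach and colon pairs was built in by the filter. Wnt3, which Paneth cells are known to make, stayed at or under 0.711 FPKM in all 8 libraries, and Wnt2, Wnt9b and Wnt10b did not exceed 0.293.

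The secretion genes were lowest in the intestine. Wls stood at 12.8 and 15.1 FPKM in forestomach, 15.7 and 12.9 in hindstomach, 3.47 and 1.92 in intestine and 7.41 and 13.1 in colon libraries. The intestine libraries did not overlap with any other tissue. Wls fell in the intestine against the forestomach (-2.05 ± 0.33, limma adjusted p = 0.0102) and against the hindstomach (-2.08 ± 0.33, adjusted p = 0.0286). Among the 8 libraries left out in turn, the first call ended only without intestine replicate 2 (adjusted p = 0.0885), and the second when any 1 hindstomach or intestine library was removed (highest adjusted p = 0.256). Both were also made with forestomach replicate 1 left out (adjusted p = 0.00855 and 0.00947). Porcn stood at 4.49 and 18.5 FPKM in forestomach, 4.31 and 7.52 in hindstomach, 1.10 and 1.16 in intestine and 1.60 and 2.18 in colon libraries, so all 4 stomach libraries exceeded all 4 bowel libraries. It fell in the intestine against the forestomach (-2.28 ± 0.59, adjusted p = 0.0431, and -3.20 ± 0.32, adjusted p = 0.00118, with forestomach replicate 1 left out). That Porcn call with all libraries ended without any 1 of the hindstomach, intestine or colon libraries. With forestomach replicate 1 left out Porcn was also called lower in the hindstomach and colon than in the forestomach, and lower in both bowel tissues than in the hindstomach. In forestomach replicate 1 Porcn was below the hindstomach mean (4.49 against 5.92 FPKM). The direction between hindstomach and forestomach therefore depended on which forestomach library was kept.

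Fzd5 and Fzd4 were the Frizzled receptors tested whose 2 forestomach libraries both lay below the 6 others. Fzd5, a receptor known from gut epithelium, was the most abundant Frizzled in 7 of 8 libraries, all but forestomach replicate 2. It stood at 9.85 and 2.86 FPKM in forestomach, 23.8 and 24.1 in hindstomach, 16.4 and 18.1 in intestine and 17.7 and 12.6 in colon libraries. Fzd4, also a receptor for Norrin, stood at 3.39 and 0.555 FPKM in forestomach, 5.97 and 5.67 in hindstomach, 5.31 and 5.46 in intestine and 5.00 and 3.70 in colon libraries. The same separation was seen for Lrp5, Lrp6 and Ror2, 5 of 30 in all against 26.7% of all genes tested, a share no higher than the background. The 2 hindstomach libraries lay above the 6 others for Fzd4 and Fzd5, 2 of 30 against 12.1%. Neither was called with 8 libraries. Without forestomach replicate 1 both were called higher than the forestomach in the hindstomach (Fzd5 2.69 ± 0.22, Fzd4 2.13 ± 0.20, limma adjusted p = 0.00105 and 0.00167), the intestine (2.24 ± 0.22 and 2.04 ± 0.20) and the colon (2.05 ± 0.22 and 1.77 ± 0.20). With replicate 2 left out in its place these were 1.20, 0.75 and 0.55 for Fzd5 and 0.64, 0.54 and 0.27 for Fzd4, of which the first Fzd5 value was called (limma adjusted p = 0.0105).

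Fzd10, Fzd6 and Fzd3 were each highest in forestomach replicate 2. Fzd10 stood at 0.900 and 24.7 FPKM in forestomach, 0.201 and 0.185 in hindstomach, 0.125 and 0.0154 in intestine and 0.472 and 1.26 in colon libraries. It was high in 1 library, forestomach replicate 2, and the 2 forestomach libraries overlapped with the colon. Fzd6, a receptor of planar cell polarity in skin, stood at 4.56 and 22.4 FPKM in forestomach, 9.03 and 8.99 in hindstomach, 2.82 and 2.19 in intestine and 3.82 and 5.65 in colon libraries. Fzd3, its relative in the same process, stood at 4.02 and 10.4 FPKM in forestomach, 6.50 and 5.67 in hindstomach, 0.977 and 0.439 in intestine and 1.80 and 4.37 in colon libraries. The intestine was the lowest tissue for all 3.

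Both intestine libraries lay below the 6 others for 13 of the 30 genes tested, against 17.4% of all genes: Wnt4, Wnt5a, Wnt5b, Wnt7b, Wnt10a, Wnt11, Fzd1, Fzd2, Fzd3, Fzd6, Fzd10, Porcn and Wls. Of these, Wnt7b and Wnt10a passed the filter only through the forestomach libraries, and Fzd10 only through forestomach replicate 2 and colon replicate 2. Wnt11 passed it only through forestomach replicate 1 and the hindstomach libraries. Intestine levels of these genes were 0.134 FPKM at most, near the floor, so their place in the count supports little. Wnt5a, Wnt5b and Fzd3 also reached 1 FPKM only outside the intestine, so their place was in part built in. Mesenchyme markers, at 559 and 113 FPKM there, were not lowest in both intestine libraries, and their part in this count was not tested. In the test, Fzd3 fell in the intestine against the forestomach (-2.17 ± 0.49, limma adjusted p = 0.0282, and -2.76 ± 0.42, adjusted p = 0.00461, with forestomach replicate 1 left out), a call lost when any 1 hindstomach or intestine library was removed. Without forestomach replicate 1 Fzd10 and Fzd6 were called lower than the forestomach in the other 3 tissues, Fzd10 by -4.43 ± 0.30, -4.59 ± 0.30 and -3.82 ± 0.30 and Fzd6 by -1.22 ± 0.24, -2.74 ± 0.24 and -2.04 ± 0.24 in hindstomach, intestine and colon. Fzd10 was tested only through forestomach replicate 2 and colon replicate 2, so its difference was in part built in and rests on 1 forestomach library. With forestomach replicate 2 left out in place of replicate 1, the Fzd6 difference in hindstomach minus forestomach was 0.85 (limma adjusted p = 0.0380, under 2-fold and so not called), so its direction depended on which forestomach library was kept.

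The other Frizzled receptors were expressed in all 4 tissues. Fzd1 stood at 4.71 and 13.8 FPKM in forestomach, 7.63 and 7.52 in hindstomach, 3.37 and 1.33 in intestine and 5.14 and 9.93 in colon libraries. Its close relative Fzd2 stood at 4.52 and 9.17 FPKM in forestomach, 6.96 and 5.71 in hindstomach, 1.87 and 0.342 in intestine and 3.38 and 10.2 in colon libraries. Fzd7, a receptor of intestinal stem cells, stood at 3.64 and 7.15 FPKM in forestomach, 9.36 and 6.97 in hindstomach, 3.76 and 2.34 in intestine and 5.23 and 9.21 in colon libraries. Each of the 3 was lower in intestine replicate 2 than in any other library. Without forestomach replicate 1 all 3 were called lower in the intestine than in the hindstomach (Fzd1 -1.43 ± 0.39, Fzd2 -1.90 ± 0.54, Fzd7 -1.19 ± 0.31, limma adjusted p 0.0361 to 0.0456). Fzd1 and Fzd2 were then also called lower in the intestine than in the forestomach (-2.22 ± 0.47 and -2.37 ± 0.67). Fzd8 stood at 1.96 and 6.01 FPKM in forestomach, 4.46 and 4.21 in hindstomach, 5.87 and 6.54 in intestine and 5.96 and 5.25 in colon libraries, and was called in no comparison with or without forestomach replicate 1. Fzd9 stayed at or under 0.541 FPKM.

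**Figure D2:**
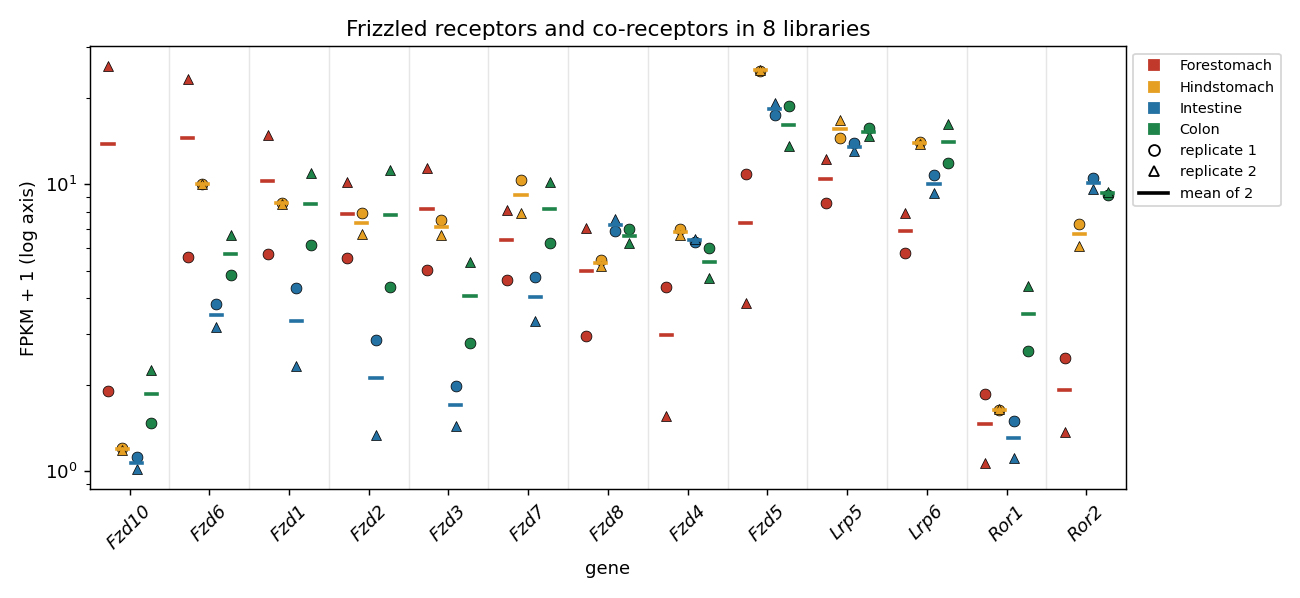
FPKM + 1 on a log axis for 9 Frizzled receptors and 4 co-receptors, drawn with the same symbols, colors and mean bars as the plot of ligands. Ror2 and Fzd5 are lowest in the 2 forestomach libraries (Ror2 at 1.48 and 0.372 FPKM), while Fzd10 is high in forestomach replicate 2 alone, at 24.7 FPKM.

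Ror2, a receptor tyrosine kinase that binds Wnt5a, was the only gene of the 48 with a call that held with each of the 8 libraries left out in turn. It stood at 1.48 and 0.372 FPKM in forestomach, 6.30 and 5.11 in hindstomach, 9.53 and 8.62 in intestine and 8.21 and 8.40 in colon libraries. The 2 intestine libraries were above the 6 others, and all 4 bowel libraries were above all 4 stomach libraries, a separation that 12.1% of all genes tested showed. Ror2 rose against the forestomach in the hindstomach (1.86 ± 0.31, limma adjusted p = 0.0289), the intestine (2.45 ± 0.31, adjusted p = 0.00470) and the colon (2.34 ± 0.31, adjusted p = 0.00761). The changes were 2.28 ± 0.18, 2.88 ± 0.18 and 2.76 ± 0.18 when forestomach replicate 1 was left out. The call that held was that of the intestine (highest adjusted p = 0.0487), the colon call ended without either colon library, and the hindstomach call ended without any 1 of the hindstomach, intestine or colon libraries and with median-of-ratios scaling (adjusted p = 0.0689). Ror2 is known from mesenchyme, and it was the higher in the library with more mesenchyme marker RNA in the forestomach, intestine and colon pairs. In the hindstomach pair Ror2 went the other way. The markers summed to 113 FPKM in intestine replicate 2 and 5276 in forestomach replicate 1, where Ror2 was at 8.62 and 1.48 FPKM, but these libraries also differ in tissue and isolation method. With the mean level of the markers as a covariate Ror2 was called in the same 3 comparisons (adjusted p 0.00113 to 0.00646). That fit also raised the calls over all genes, from 5.59% to 13.4% in hindstomach minus forestomach. The part of mesenchymal RNA in the Ror2 levels was not tested.

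Ror1, its paralog, did not share this pattern. It stood at 0.864 and 0.0654 FPKM in forestomach, 0.629 and 0.646 in hindstomach, 0.500 and 0.110 in intestine and 1.63 and 3.44 in colon libraries. The 2 colon libraries were above the 6 others, as they were for Sfrp2, 2 of 30 against 8.26% of all genes tested. Ror1 passed the filter only through the 2 colon libraries, so that its separation was built in and supports nothing, and the same holds for its call. It was not called with 8 libraries, and without forestomach replicate 1 it was called higher in the colon than in the forestomach (1.68 ± 0.38). Mesenchyme markers summed to 1070 and 2433 FPKM in the colon libraries and to 130 in forestomach replicate 2, and their part in the Ror1 levels was not tested. Lrp5, like Lrp6 a co-receptor of the beta-catenin pathway, stood at 7.61 and 11.2 FPKM in forestomach, 13.5 and 15.8 in hindstomach, 12.98 and 12.02 in intestine and 14.7 and 13.8 in colon libraries, and was called in no comparison. Lrp6 stood at 4.78 and 6.94 FPKM in forestomach, 13.1 and 12.8 in hindstomach, 9.81 and 8.31 in intestine and 10.8 and 15.2 in colon libraries. It rose in the colon against the forestomach (1.03 ± 0.25, limma adjusted p = 0.0459), where the median over all genes was 0.41. The call ended when any 1 library other than forestomach replicate 2 was left out (0.80 ± 0.22 without forestomach replicate 1, under 2-fold). It also ended with median-of-ratios scaling (limma adjusted p = 0.152).

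Sequence upstream of 3 genes is printed for the genes on which several results turn: Ror2, called in 3 comparisons, Wls, called in 2, and Sfrp5, which is described next. Each is the 250 bases before the gene start in RefSeq (GRCm38.p6), 5′ to 3′ on the gene's strand, at chr13:53286125-53286374 (minus strand), chr3:159839400-159839649 (plus strand) and chr19:42202253-42202502 (minus strand). Capitals mark matches to letter strings searched on both strands. One is CTTTGAT, the motif of the TCF/LEF factors to which beta-catenin binds. Another is TGANTCA, the AP-1 motif, and the last is AGATAA, bound by factors of the GATA family. No matches overlap in these windows.
Ror2: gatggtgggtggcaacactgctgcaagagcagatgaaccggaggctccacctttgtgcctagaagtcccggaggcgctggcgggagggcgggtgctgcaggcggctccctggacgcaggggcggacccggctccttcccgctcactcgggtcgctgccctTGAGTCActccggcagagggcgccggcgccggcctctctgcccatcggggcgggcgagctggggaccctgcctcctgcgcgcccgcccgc
Wls: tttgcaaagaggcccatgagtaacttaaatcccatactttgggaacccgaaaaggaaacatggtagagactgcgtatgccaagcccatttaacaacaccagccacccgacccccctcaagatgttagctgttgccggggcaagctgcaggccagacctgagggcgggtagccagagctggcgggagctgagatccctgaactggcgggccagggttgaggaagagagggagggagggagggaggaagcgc
Sfrp5: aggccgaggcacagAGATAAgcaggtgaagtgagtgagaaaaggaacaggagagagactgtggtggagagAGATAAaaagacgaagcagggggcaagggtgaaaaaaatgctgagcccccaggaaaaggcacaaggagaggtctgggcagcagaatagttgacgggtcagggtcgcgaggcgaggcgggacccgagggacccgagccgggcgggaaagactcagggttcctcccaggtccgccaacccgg
The Ror2 window held 1 AP-1 match starting 90 bases before the gene start, the Sfrp5 window held 2 GATA matches, and the Wls window held none of the 3. Of all 32851 windows of this length 6.75% held the AP-1 letters, 9.99% the GATA letters and 3.21% the TCF/LEF letters. Windows were given for 32 of the 48 genes (35 windows), and 2, 3 and 2 of them held these letters, at Wnt5b and Ror2 for AP-1, at Wnt8b, Fzd1 and Sfrp5 for GATA, and at Wnt5b and Wnt11 for TCF/LEF. Median GC content was 66.8% in these windows and 52.4% in all. A match describes letters only, and these files hold no binding data for the factors.

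Sfrp5, a secreted antagonist known from foregut endoderm, ranged over the 8 libraries from 0.00944 to 17.9 FPKM. It stood at 0.817 and 0.00944 FPKM in forestomach, 16.6 and 5.54 in hindstomach, 17.9 and 13.2 in intestine and 8.30 and 0.199 in colon libraries. Both intestine and both hindstomach libraries exceeded both forestomach libraries, while the colon pair overlapped with the forestomach. In the intestine against the forestomach the difference was 3.59 ± 0.99 and just missed the threshold (limma adjusted p = 0.0521), and without forestomach replicate 1 it was called (4.02 ± 1.23, adjusted p = 0.0477). Between the library with more and the library with less mesenchyme marker RNA Sfrp5 differed by 0.85 in the forestomach, -1.43 in the hindstomach, 0.41 in the intestine and -2.96 in the colon on the log2(FPKM + 1) scale. The 8 pancreas markers were higher in the same library as Sfrp5 in all 4 pairs, with sums in replicates 1 and 2 of 31.2 and 1.89 FPKM in forestomach, 3483 and 944 in hindstomach, 2218 and 384 in intestine and 1383 and 428 in colon libraries. Their part in the Sfrp5 levels was not tested.

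Sfrp1 and Sfrp2, antagonists of mesenchyme in many organs, were ordered otherwise. Sfrp1 stood at 15.6 and 14.5 FPKM in forestomach, 6.66 and 8.08 in hindstomach, 7.50 and 0.848 in intestine and 10.03 and 21.5 in colon libraries. Its forestomach libraries were close to each other, and their mesenchyme markers summed to 5276 and 130 FPKM. In the intestine and colon pairs Sfrp1 was higher in the library with more mesenchyme marker RNA. The part of mesenchymal RNA in the Sfrp1 levels was not tested. Sfrp1 was called in no comparison. Sfrp2 stood at 2.33 and 0.383 FPKM in forestomach, 4.47 and 3.47 in hindstomach, 1.76 and 0.473 in intestine and 7.15 and 27.7 in colon libraries. The colon minus forestomach difference missed the threshold with 8 libraries (2.83 ± 0.71, limma adjusted p = 0.0507) and was called without forestomach replicate 1 (3.47 ± 0.77). Mesenchyme markers summed to 1070 and 2433 FPKM in the colon libraries and to 130 in forestomach replicate 2. Their part in the Sfrp2 levels was not tested. Dkk3, a divergent member of the Dkk family, stood at 13.7 and 0.582 FPKM in forestomach, 1.66 and 1.66 in hindstomach, 1.496 and 0.204 in intestine and 2.84 and 6.43 in colon libraries. Dkk2 was at 6.91 FPKM in colon replicate 2 and at 0.0242 to 1.62 elsewhere. Neither Dkk gene was called. Dkk1, Sfrp4, Wif1 and Frzb stayed at or under 0.938 FPKM in all 8 libraries.

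Of the R-spondins only Rspo1 and Rspo3 passed the filter. Rspo1 stood at 11.7 and 0.860 FPKM in forestomach, 4.51 and 4.12 in hindstomach, 5.12 and 5.76 in intestine and 5.34 and 8.35 in colon libraries. Its 6 libraries outside the forestomach lay between 4.12 and 8.35 FPKM, and their mesenchyme markers ran from 113 to 2433. The part of mesenchymal RNA in the Rspo1 levels was not tested. Rspo1 was called higher than the forestomach in the other 3 tissues without forestomach replicate 1 (1.51 ± 0.26, 1.79 ± 0.26 and 2.05 ± 0.26 in hindstomach, intestine and colon). Leaving out forestomach replicate 2 instead gave -1.25, -0.98 and -0.72, of which the hindstomach value was called lower (limma adjusted p = 0.0151), so no direction against the forestomach can be given. Rspo3 stood at 7.12 and 0.0449 FPKM in forestomach, 0.809 and 0.615 in hindstomach, 0.652 and 0.0698 in intestine and 1.03 and 3.36 in colon libraries, and was not called. Rspo2 reached 0.940 FPKM in colon replicate 2, and Rspo4 stayed at or under 0.145.

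**Figure D3:**
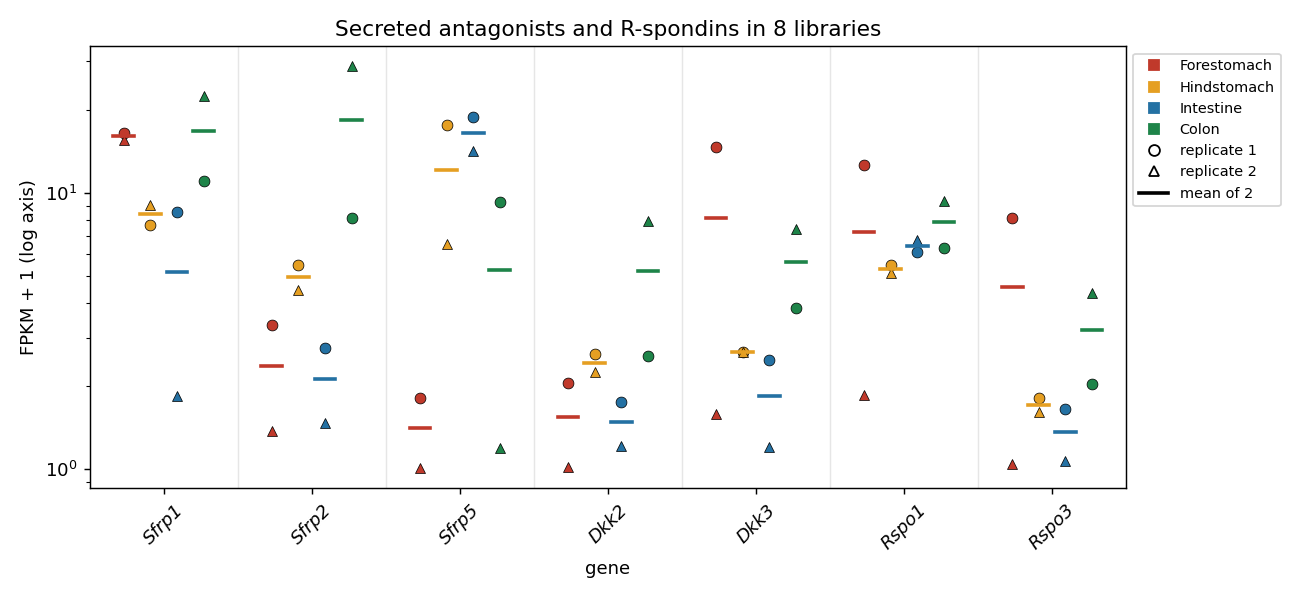
FPKM + 1 on a log axis for 5 secreted antagonists and 2 R-spondins, drawn with the same symbols, colors and mean bars as the plot of ligands. Sfrp5 is high in the hindstomach and intestine (5.54 to 17.9 FPKM) and low in the forestomach, while Dkk3 and Rspo3 are highest in forestomach replicate 1, at 13.7 and 7.12 FPKM.

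To sort genes by whether they vary with mesenchyme marker RNA, the 2 libraries of each tissue were compared with each other, which uses no difference between tissues. The forestomach pair also differed in gastric glandular (168712 and 246 FPKM) and squamous markers (1640 and 42157), which cannot be told apart from mesenchyme there. The library with the higher mean log2(FPKM + 1) of the 25 mesenchyme markers was replicate 1 in the forestomach and the intestine and replicate 2 in the hindstomach and the colon, and the scores differed by 3.95, 1.76, 0.61 and 1.11. Of the 30 genes tested, 3 (Wnt11, Ror1 and Sfrp1) were higher in that library in all 4 tissues, and 11.1% of all genes tested were. The hindstomach pair differed least in score, but 21 of the 25 markers were higher in that library in all 4 tissues. Over the other 3 pairs, a choice made after seeing the data, 11 of the 30 genes were higher each time, against 20.3% of all genes tested and 24 of the 25 markers. They were Wnt2b, Wnt5a, Wnt9a, Wnt11, Ror1, Ror2, Sfrp1, Sfrp2, Dkk2, Dkk3 and Rspo3. Of the 12 tested genes known from mesenchyme 9 were among them, and of the 5 known from epithelium 1, Wnt11. Over all 4 pairs 2 of those 12 were higher each time. In the hindstomach pair all of the 11 except Wnt11, Ror1 and Sfrp1 went the other way. Of the 11, Wnt2b and Wnt9a passed the filter only through forestomach replicate 1 and colon replicate 2, both mesenchyme-high libraries. Their direction in the forestomach and colon pairs was therefore built in and supports nothing. Dkk3, Rspo3 and Sfrp2 had the largest mean differences, with 3.21, 2.96 and 1.27 in the forestomach, 1.05, 0.63 and 0.91 in the intestine and 0.95, 1.10 and 1.82 in the colon. Ror2 differed by 0.85 in the forestomach and by 0.13 and 0.03 in the intestine and the colon.

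**Figure D4:**
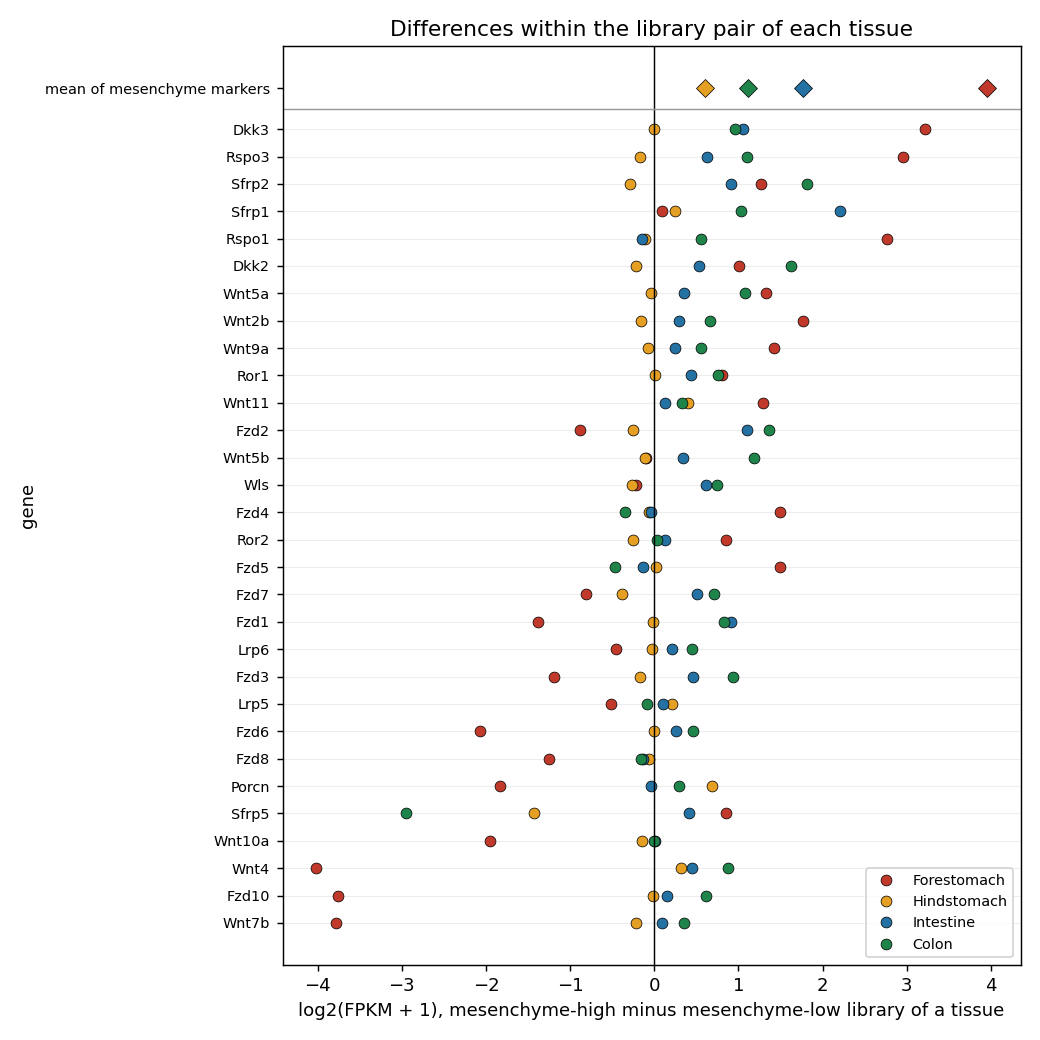
Difference in log2(FPKM + 1) between the library with more and the library with less mesenchyme marker signal in each tissue, for the 30 genes tested, with colors for the 4 tissues and diamonds for the mean of the markers. Dkk3, Rspo3 and Sfrp2 lie to the right in 3 tissues, while Wnt4, Wnt7b and Fzd10 lie far to the left in the forestomach, at -4.02, -3.79 and -3.76.

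Another 11 genes were higher in the mesenchyme-high library of both bowel pairs but lower in that of the forestomach: Wnt4, Wnt5b, Wnt7b, Fzd1, Fzd2, Fzd3, Fzd6, Fzd7, Fzd10, Lrp6 and Wls. That pattern was shared by 35.0% of all genes tested, so it is not particular to these. Of the 30 genes tested 1, Fzd8, was higher in the mesenchyme-high library of none of the 4 pairs, as were 447 of the 12894 genes tested.

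Calls were counted by comparison, a call meaning a limma adjusted p under 0.05 over all genes and at least a 2-fold change. Ror2 was the only gene of the 30 called in hindstomach minus forestomach, higher, where 4.26% of all genes tested were called higher and 5.59% in either direction, and the median log2 change was -0.07 for the 30 and 0.39 for all genes. Wls was the only one called in intestine minus hindstomach, lower, against 2.47% of all genes lower and 5.03% in either direction (median -0.46 and -0.25). Ror2 was higher and Wnt4, Wnt10a, Fzd3, Porcn and Wls were lower in intestine minus forestomach, 6 of 30 against 17.1% of all genes (median -0.88 and 0.11). All genes were called higher there at 11.3% and lower at 5.78%, and 1 of the 5 lower calls, Wnt10a, passed the filter only through the forestomach. For colon minus forestomach Ror2 and Lrp6 were called higher and Wnt10a, with the same limit, lower, 3 of 30 against 11.6%, with 9.2% of all genes higher and 2.41% lower (median 0.09 and 0.41). None of the 30 was called by limma in colon minus intestine (9 of 30 and 14.2% of all genes at an unadjusted p under 0.05, 0.38% of all genes called, median 0.81 and 0.23) or in colon minus hindstomach (1 of 30 and 12.3% of all genes at an unadjusted p under 0.05, 1.5% of all genes called, median -0.02 and 0.02). The forestomach libraries are shared by 3 of these comparisons. Mesenchyme markers summed to 1070 and 2433 FPKM in the colon and to 559 and 113 in the intestine, and their part in the colon minus intestine values was not tested. Median-of-ratios scaling brought the median of all genes in hindstomach minus forestomach from 0.39 to 0.05, in intestine minus hindstomach from -0.25 to 0.0011, in colon minus intestine from 0.23 to -0.08, and in colon minus forestomach from 0.41 to 0.02.

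When the library labelled forestomach replicate 1 was left out, the remaining forestomach library was assumed to vary like the others. Then 26 genes were tested, since Wnt2b, Wnt7b, Wnt9a and Wnt10a no longer passed the filter. Wnt11, Fzd10 and Ror1 passed it only through libraries where they were high, so their calls among those below were in part built in. Hindstomach minus forestomach gave 5 calls higher and 4 lower (20.9% of all genes called, 14.3% higher and 6.55% lower). Intestine minus hindstomach gave 9 lower and none higher (17.4%, with 9.96% lower). Those 9 were Wnt4, Wnt11, Fzd1, Fzd2, Fzd3, Fzd6, Fzd7, Porcn and Wls. Intestine minus forestomach gave 5 higher and 8 lower (27.9%, with 16.6% higher and 11.3% lower), and colon minus forestomach 6 higher and 5 lower (25.6%, with 19.1% higher and 6.44% lower). Wnt4 and Porcn were lower in colon minus hindstomach (7.59%, with 3.1% lower). None was called by limma in colon minus intestine (16 of 26 and 35.8% of all genes at an unadjusted p under 0.05, 2.54% of all genes called).

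The rest of the pathway was read from 3 further lists. Of 23 other extracellular and membrane genes 17 were tested, of 16 signal transduction genes 14, and of 13 target and feedback genes 12. With 8 libraries 8 genes of these lists were called in at least 1 comparison. Lgr5, an R-spondin receptor and target of the pathway, stood at 0.339 and 0.304 FPKM in forestomach, 3.61 and 4.36 in hindstomach, 1.39 and 1.62 in intestine and 2.74 and 2.18 in colon libraries. It rose in the hindstomach (1.91 ± 0.21, limma adjusted p = 0.00862) and the colon (1.38 ± 0.21, adjusted p = 0.0116) against the forestomach, and by 1.93 ± 0.21 and 1.40 ± 0.21 without forestomach replicate 1. Ephb2, a receptor of the crypt base, rose against the forestomach in the hindstomach, the intestine and the colon (1.47 ± 0.26, 1.20 ± 0.26 and 1.85 ± 0.26), from 0.591 and 1.40 FPKM in forestomach libraries to between 3.39 and 6.80 elsewhere. Its relative Ephb3 went the other way, at 7.86 and 21.9 FPKM in forestomach libraries against 1.42 and 1.05 in intestine libraries, where it fell (-2.68 ± 0.50, and -3.36 ± 0.37 without forestomach replicate 1). Without that library Ephb2 stayed called in the hindstomach and colon (1.17 ± 0.20 and 1.55 ± 0.20) and not in the intestine.

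Tcf7l1, a repressing member of the TCF family, stood at 10.9 and 13.5 FPKM in the hindstomach and 1.48 and 0.528 in the intestine, where it fell (-2.76 ± 0.45, limma adjusted p = 0.0288). Celsr1, a planar polarity cadherin, fell in the intestine against the forestomach (-2.87 ± 0.62, and -3.86 ± 0.28 without forestomach replicate 1), and Cthrc1, a secreted cofactor, was called higher in the hindstomach than in both the forestomach and the intestine. Gpc3, a heparan sulfate proteoglycan, rose in the intestine and colon against the forestomach, as Prickle1, a planar polarity gene, did in the colon, and these calls were also made without forestomach replicate 1. Of the 3 lists in their order 1, 0 and 2 genes were called higher in the hindstomach than in the forestomach (4.26% of all genes) and none lower. Intestine minus hindstomach gave none higher and 1, 1 and 0 lower (2.47% of all genes). Intestine minus forestomach gave 1, 0 and 1 higher (11.3%) and 1, 0 and 1 lower (5.78%), and in the colon against the forestomach 2, 0 and 2 were higher (9.2%) and none lower. The remaining comparisons had no call. With forestomach replicate 1 left out the 3 lists held 2, 1 and 4 higher and 6, 1 and 3 lower calls in hindstomach minus forestomach (14.3% and 6.55% of all genes). Intestine minus forestomach then gave 2, 0 and 0 higher and 9, 3 and 5 lower (16.6% and 11.3%), and colon minus forestomach 2, 0 and 4 higher and 6, 2 and 3 lower (19.1% and 6.44%). Axin2, a direct target and feedback inhibitor, stood at 1.26 and 4.99 FPKM in forestomach, 1.88 and 1.71 in hindstomach, 3.14 and 2.99 in intestine and 3.63 and 3.27 in colon libraries. With 8 libraries it was not called, and hindstomach minus forestomach was -0.40 ± 0.44 (limma adjusted p = 0.568). Without forestomach replicate 1 it was lower in the hindstomach than in the forestomach (-1.10 ± 0.17). That value rests on forestomach replicate 2 alone. Forestomach replicate 1 lay below both hindstomach libraries, so the direction of Axin2 depended on which forestomach library was kept.

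In GENCODE M21 (GRCm38) the 7 genes with calls are annotated as protein coding: Ror2 on chromosome 13 from 53109312 to 53286124, Wls on chromosome 3 from 159839672 to 159938664, Wnt4 on chromosome 4 from 137277489 to 137299726, Porcn on chromosome X from 8193848 to 8206525, Wnt10a on chromosome 1 from 74791516 to 74804179, Fzd3 on chromosome 14 from 65192449 to 65262463 and Lrp6 on chromosome 6 from 134446476 to 134566965. No exon of these 7 overlaps an exon of another annotated coding or long noncoding gene. Exons of Wnt5a, Wnt7b, Fzd6, Sfrp2 and Rspo3 do overlap a gene on the opposite strand (AU022754 for Wnt7b), and without a known strand setting their reads cannot be told apart from that gene's.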

How the data were processed

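The deposited values are FPKM, made by the authors. Per the submitters' processing notes STAR 2.4.2a and the build mm10 (GRCm38) were used. Which program made the FPKM values, with which annotation and strand option, is not given in the sources used here. The table's 4 columns that fit none of the listed samples were left aside.

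FPKM values were taken as log2(FPKM + 1) for the 12894 of 23393 genes that reached 1 FPKM in 2 or more libraries. Using limma 3.58.1 (R 4.3.3), tissue means were modelled with a trended empirical Bayes variance (4 residual degrees of freedom) for 6 pairwise comparisons, with Benjamini-Hochberg adjustment over all genes within each. Fold changes on this scale understate those of low genes. The fit was tested on simulated data. Values in every library are given for genes called in any comparison, with all libraries or without forestomach replicate 1, and for those averaging at least 5 FPKM in a tissue. Others are mainly given by ranges, and Wnt3a, Wnt5a, Wnt6, Wnt16 and Rspo3 were added after their values were seen. The alternatives were another pseudocount (0.25), no filter, median-of-ratios scaling, a replicate block, a mesenchyme marker covariate, the 2 tissues alone, no fold rule and each library left out. The genes, lists and comparisons were chosen with earlier results of these data known.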

Additional observations from a re-analysis of the deposited data

How the results depend on the processing

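The number of the 30 genes called moved as follows. In the hindstomach against the forestomach it was 1, and 2 with a pseudocount of 0.25, 0 with median-of-ratios scaling, 7 with the mesenchyme marker score as a covariate and 0 with only the 2 tissues compared. In the intestine against the hindstomach it was 1, and 0 with the replicate block, 4 with the covariate and 10 with the 2 tissues alone. In the intestine against the forestomach it was 6, and 2 with no filter, 12 with the covariate and 1 with the 2 tissues alone. In the colon against the forestomach it was 3, and 1 with no filter, with scaling and with the replicate block, 6 with the covariate and 0 with the 2 tissues alone. In the colon against the hindstomach it was 0, and 1 with the covariate and with the 2 tissues alone. Counts over all genes moved too: from 5.59% of all genes to 13.4% with the covariate, 3.54% with scaling and 0.613% with the 2 tissues alone in hindstomach minus forestomach, from 5.03% to 11.7% with the covariate and 17.8% with the 2 tissues alone in intestine minus hindstomach, from 17.1% to 8.87% with no filter and 23.9% with the covariate in intestine minus forestomach, and from 11.6% to 19.8% with the covariate in colon minus forestomach. The cause was not tested. The covariate and the 2-tissue fits also leave fewer residual degrees of freedom. Genes higher in the mesenchyme-high library were 3 over 4 pairs and 11 over 3. With each library left out the counts ran from 0 to 9 in hindstomach minus forestomach and in intestine minus hindstomach, 0 to 0 in colon minus intestine, 1 to 13 in intestine minus forestomach, 0 to 11 in colon minus forestomach and 0 to 2 in colon minus hindstomach. The highest counts came without forestomach replicate 1, in intestine minus hindstomach and colon minus hindstomach equally without replicate 2.

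Directions reversed for genes not called with all libraries, between leaving out forestomach replicate 1 and replicate 2. In that order the log2 change in hindstomach minus forestomach was 1.01 and -0.28 for Wnt11, -1.22 and 0.85 for Fzd6, -1.54 and 0.29 for Porcn, and 1.51 and -1.25 for Rspo1. In colon minus forestomach it was -2.04 and 0.027 for Fzd6 and 2.05 and -0.72 for Rspo1, and in intestine minus forestomach 1.79 and -0.98 for Rspo1. Rspo1 was -0.13 in colon minus forestomach with the covariate and -0.20 in hindstomach minus forestomach with scaling. In a check of the pairing, same-numbered libraries deviated together with r from -0.58 to 0.27. With 2 libraries a tissue this cannot decide whether the numbers pair the libraries, and the labels do not say. The replicate block ended the calls of Wnt10a in both comparisons (adjusted p = 0.0523 for the intestine and 0.0746 for the colon), Lrp6 (0.0769) and Wls against the hindstomach (0.0688), and added Sfrp5 in intestine minus forestomach (0.0242). With 2 libraries a tissue and no read depth, small changes of low genes were not detectable.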

Other observations

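With the mesenchyme marker score as a covariate, which leaves 3 residual degrees of freedom, genes not called without it were called, as 13.4% of all genes were in hindstomach minus forestomach against 5.59% without it. Fzd5 and Fzd4 were higher in the hindstomach than in the forestomach (1.99 ± 0.35 and 1.43 ± 0.33, limma adjusted p = 0.0183 and 0.0379) and in the intestine (1.67 ± 0.36 and 1.47 ± 0.34). Wnt7b was lower than the forestomach in the hindstomach (-3.004 ± 0.61, adjusted p = 0.0269) and the intestine (-3.67 ± 0.62, adjusted p = 0.00774), but it passed the filter only through the 2 forestomach libraries, so a difference was built in. Wnt11 was lower in the colon than in the hindstomach (-1.42 ± 0.25, adjusted p = 0.0342). It passed the filter only through forestomach replicate 1 and the hindstomach libraries, so this difference was in part built in too. The score comes from the same libraries.

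Dkkl1, a secreted relative of the Dkk family, and Kremen1, a receptor for Dkk proteins, were among the genes called lower than the forestomach in the other 3 tissues when forestomach replicate 1 was left out (Dkkl1 -5.26 ± 0.33, -5.60 ± 0.33 and -4.83 ± 0.33, Kremen1 -2.18 ± 0.14, -2.51 ± 0.14 and -2.25 ± 0.14 in hindstomach, intestine and colon, limma). Dkkl1 was at 50.2 FPKM in forestomach replicate 2, 2.58 in forestomach replicate 1 and at most 1.31 in the other 6 libraries. Without forestomach replicate 1 Dkkl1 passed the filter only through forestomach replicate 2 and colon replicate 2. Its difference was thus in part built in and rests on 1 forestomach library. Kremen1 was at 31.5 FPKM in forestomach replicate 2, 4.24 in forestomach replicate 1 and 4.58 to 6.37 in the others. Its direction therefore depended on which forestomach library was kept. With 8 libraries neither gene was called, and hindstomach minus forestomach was -3.34 ± 1.13 for Dkkl1 and -0.86 ± 0.77 for Kremen1 (limma adjusted p = 0.121 and 0.473).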
